A study of Mus musculus with 8 samples.

Results

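Promoters with few G and C bases were examined among the protein-coding genes of the mouse. Each gene of chromosomes 1 to 19 in the GENCODE vM1 annotation was represented by its 5′-most transcription start site, and the GC content was counted in mm9 over the 500 bases on each side of it (1001 bases with the start itself). Of 21418 start sites, 4007 had a GC content below 45% and form the low-GC class. They were compared with 6368 start sites of 60% GC or more, the high-GC class, and the remaining 11043 lay between these limits. A start site was counted as having a peak when at least 1 base of a called peak fell in its window.

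The peaks came from ATAC-seq, an assay that marks accessible DNA by letting the transposase Tn5 insert adapters into it. Wild type mice of the strain C57BL/6J, 6 weeks old, gave the stromal cells of the bone marrow for 7 libraries, ATAC1 through ATAC7, and every peak call used the same Input control. In the study, cells lacking CD31, CD45 and TER119 and carrying Sca-1 and PDGFR-α were sorted further by combinations of CD24, CD39, CD54 and Ly-6C to ask how the open chromatin of the resulting populations differed. No label ties a library to a sorted population, and each title had 1 library, so differences between titles have no replicate check. The lists held 15188 to 32280 peaks per library, with a median of 111 to 169 library reads and 21 to 34 Input reads per peak. Read numbers below are those in the wider region around a peak and are not scaled for depth, and a missing peak means only that none passed the limits of the peak caller.

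Promoters of mammals fall into broad kinds. Those of housekeeping genes usually lie in CpG islands, stretches rich in G, C and the dinucleotide CG, which tend to be free of DNA methylation and accessible in most cell types. Promoters poor in CG are often methylated, more often carry a TATA box, and serve genes used in few tissues, such as sensory receptors, globins and proteins of immune cells.

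The low-GC windows had a median GC content of 40.5% (range 26.7% to 44.955%) and a median of 6 CG dinucleotides, against 64.6% and 84 in the high-GC class. Relative to the number that their C and G content would give, the low-GC windows held a median of 0.150 CG dinucleotides and the high-GC windows 0.809. The DNA at the peaks is printed here for 8 low-GC members. Each stretch is the 200 bases around the centre of the best-ranked peak on the strand of the gene (mm9), with every CG in capitals. The called peaks themselves were 11 bases (*Fap*) to 300 bases (*Gbp3*) wide. A stretch can therefore hold flanking bases outside the peak or only part of it. *Tmem167*, *Zcchc7* and *Hist1h3f* had the strongest peaks among named members called in all 7 libraries, and *Zfand6* had the lowest window GC of those called in at least 4. *Cd53*, *Fap*, *Calcrl* and *Gbp3* were the best members of the haematopoietic, stromal, endothelial and inflammatory gene lists used below. *Pcmtd1*, the high-GC start site with the best mean rank, is given for comparison.
Tmem167 (chr13:90229151-90229350, plus strand): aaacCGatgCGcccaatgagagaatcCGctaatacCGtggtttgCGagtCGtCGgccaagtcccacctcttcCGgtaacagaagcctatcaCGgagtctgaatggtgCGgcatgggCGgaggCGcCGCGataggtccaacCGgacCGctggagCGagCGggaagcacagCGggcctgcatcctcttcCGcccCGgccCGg
Zcchc7 (chr4:44769198-44769397, plus strand): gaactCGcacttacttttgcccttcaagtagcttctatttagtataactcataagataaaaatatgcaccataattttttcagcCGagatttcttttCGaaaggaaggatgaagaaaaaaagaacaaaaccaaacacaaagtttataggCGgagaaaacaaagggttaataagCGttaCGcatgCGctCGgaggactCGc
Hist1h3f (chr13:23636149-23636348, plus strand): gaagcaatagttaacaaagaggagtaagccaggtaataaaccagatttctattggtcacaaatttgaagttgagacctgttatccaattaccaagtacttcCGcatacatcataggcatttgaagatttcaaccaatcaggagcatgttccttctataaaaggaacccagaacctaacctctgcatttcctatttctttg
Zfand6 (chr7:91827865-91828064, minus strand): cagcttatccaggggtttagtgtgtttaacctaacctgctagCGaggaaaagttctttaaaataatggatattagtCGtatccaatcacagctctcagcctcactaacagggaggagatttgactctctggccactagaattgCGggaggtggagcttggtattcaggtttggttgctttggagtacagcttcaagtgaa
Cd53 (chr3:106592940-106593139, minus strand): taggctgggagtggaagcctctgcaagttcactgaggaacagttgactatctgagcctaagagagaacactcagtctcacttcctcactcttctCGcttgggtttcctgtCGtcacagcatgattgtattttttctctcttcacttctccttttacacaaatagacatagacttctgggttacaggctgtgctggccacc
Fap (chr2:62411951-62412150, minus strand): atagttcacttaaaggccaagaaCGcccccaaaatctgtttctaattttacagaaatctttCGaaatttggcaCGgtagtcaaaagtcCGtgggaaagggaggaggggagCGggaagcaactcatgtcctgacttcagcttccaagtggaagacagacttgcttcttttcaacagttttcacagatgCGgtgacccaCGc
Calcrl (chr2:84265409-84265608, minus strand): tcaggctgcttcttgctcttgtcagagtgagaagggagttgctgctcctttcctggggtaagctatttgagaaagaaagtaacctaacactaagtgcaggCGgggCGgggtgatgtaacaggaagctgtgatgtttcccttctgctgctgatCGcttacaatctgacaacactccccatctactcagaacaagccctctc
Gbp3 (chr3:142223523-142223722, plus strand): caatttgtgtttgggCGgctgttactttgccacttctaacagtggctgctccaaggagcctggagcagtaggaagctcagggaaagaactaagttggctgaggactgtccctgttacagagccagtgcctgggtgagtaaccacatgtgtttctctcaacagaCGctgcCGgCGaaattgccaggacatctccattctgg
Pcmtd1 (chr1:7078924-7079123, plus strand): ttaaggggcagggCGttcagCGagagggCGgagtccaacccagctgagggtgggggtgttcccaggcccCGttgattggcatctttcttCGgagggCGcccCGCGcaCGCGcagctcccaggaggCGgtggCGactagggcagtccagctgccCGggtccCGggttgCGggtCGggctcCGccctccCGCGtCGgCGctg

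Among these, the *Tmem167* stretch held 22 CG dinucleotides at 64% GC, against 21 in that of *Pcmtd1* at 72% GC, although the GC content of its whole window was 44.955%. The stretches of the other low-GC members held 1 CG (*Hist1h3f*) to 9 (*Zcchc7*). CCAAT, read on both strands, stood at 3 places in that of *Hist1h3f*, at 1 each in those of *Tmem167*, *Zfand6* and the high-GC *Pcmtd1*, and at none in the others.

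Low-GC start sites rarely had a peak. At least 1 library had one at 164 of 4007 (4.09%, 95% Wilson interval 3.52 to 4.75), against 5515 of 6368 high-GC start sites (86.6%, 85.7 to 87.4) and 53% of all start sites. In all 7 libraries a peak was called at 20 low-GC start sites (0.499%, 0.323 to 0.770) and at 3745 high-GC ones (58.8%, 57.6 to 60.01), beside 33.3% of all. The intervals here and below cover counting error only. No peak was called at the other 3843 low-GC start sites in any library.

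The scarcity held in every library. In ATAC5 106 low-GC start sites had a peak (2.65%, 95% Wilson interval 2.19 to 3.19) where 48.3% of all start sites did, in ATAC2 86 (2.15%, 1.74 to 2.64) where 45.8% did, and in ATAC1 85 (2.12%, 1.72 to 2.62) where 45.3% did. ATAC6 followed with 70 (1.75%, 1.39 to 2.201) beside 47.1% of all. The lowest counts were 46 in ATAC4 (1.15%, 0.862 to 1.53) beside 40.7% of all, 45 in ATAC3 (1.12%, 0.840 to 1.499) beside 40.4%, and 42 in ATAC7 (1.05%, 0.776 to 1.41) beside 38.9%. ATAC3, ATAC4 and ATAC7 also had the shortest peak lists, and when the same number of best peaks, 15188, was taken from each library, the counts lay between 36 and 47 for ATAC1, ATAC2, ATAC5 and ATAC6. The high-GC share ranged from 68.3% in ATAC7 to 80.7% in ATAC5. Over the 7 libraries the mean share was 1.71% ± 0.624 (SD, n = 7) in the low-GC class and 74.3% ± 4.79 in the high-GC class. The difference of -72.6 percentage points ± 4.24 had the same sign in 7 of 7 libraries (exact sign-flip permutation test, two-sided, p = 0.0156, the smallest that 7 libraries allow, and 0.0156 after Benjamini-Hochberg adjustment over 6 measures). The libraries share the Input, so they are not fully independent in this test and those below.

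The share rose with GC content within the low-GC class and beyond it. Below 35% GC 4 of 441 start sites had a peak in any library (0.907%), from 35% to 40% GC 29 of 1391 (2.08%), and from 40% to 45% GC 131 of 2175 (6.02%). From 45% to 50% GC, outside the class, 622 of 2857 did (21.8%). On either side of the limit, 37 of 516 start sites of 44% to 45% GC (7.17%) and 65 of 539 of 45% to 46% GC (12.1%) had a peak.

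**Figure D1:**
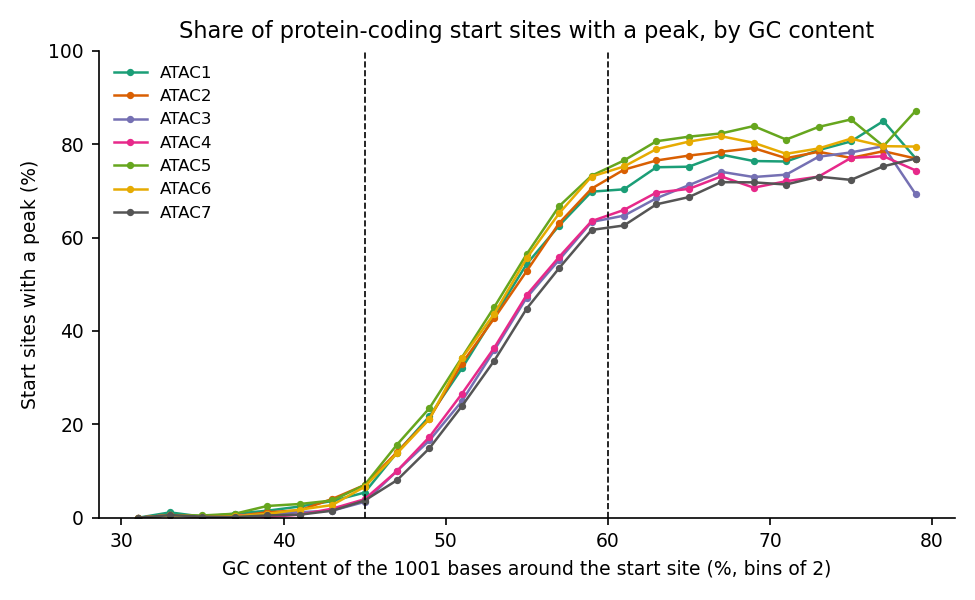
Share of protein-coding start sites with a peak (y axis, %) by the GC content of the 1001 bases around the start (x axis, %, bins of 2), with a line for each of the 7 libraries and dashed lines at 45% and 60% GC. All 7 lines stay near 0 at the left, climb between 45% and 60%, and level off to the right, where ATAC5 lies highest and ATAC7 lowest over most bins.

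Of the low-GC start sites with a peak, most had it in few libraries. A peak in 1 library was seen at 59 of the 164 (35.98%, 95% Wilson interval 29.0 to 43.6), in 2 libraries at 32, in 3 at 18, in 4 at 18, in 5 at 11, in 6 at 6, and in 7 at 20 (12.2%, 8.03 to 18.1). Among the 5515 high-GC start sites with a peak, 233 had it in 1 library (4.22%, 3.73 to 4.79) and 3745 in all 7 (67.9%, 66.7 to 69.1). Taken library by library, a mean of 32.8% ± 11.96 (SD, n = 7) of the low-GC start sites with a peak were called in all 7, against 79.4% ± 5.12 of the high-GC ones. The same 20 and 3745 start sites are counted in every library and the measure was added after seeing the data, so this is a description with no test. Within the weaker 50% of each list, 0% to 41.9% of low-GC and 2.45% to 67.8% of high-GC start sites were called in all 7.

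**Figure D2:**
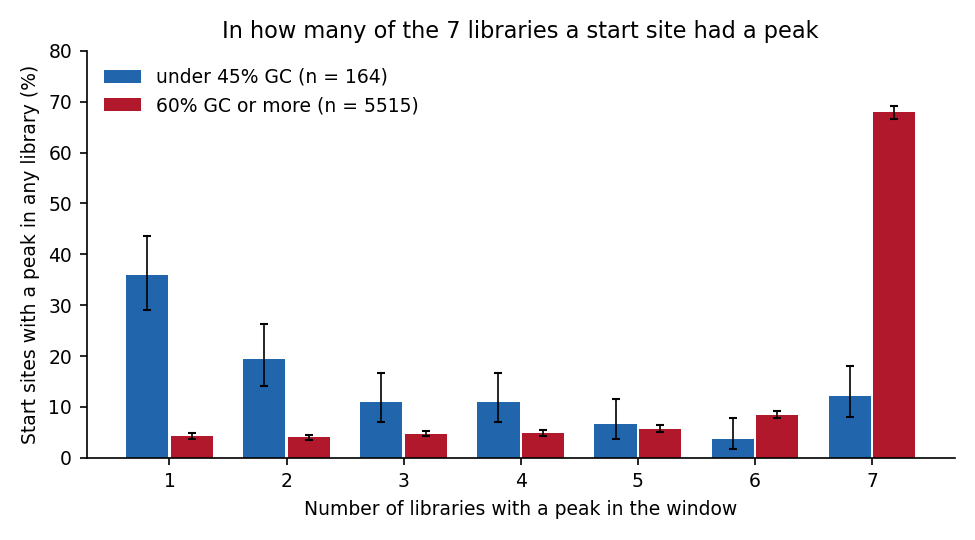
Number of libraries, of 7, in which a start site had a peak (x axis) against the share of the start sites of its class with a peak in any library (y axis, %), for the low-GC (n = 164) and the high-GC class (n = 5515). Bars are shares and error bars 95% Wilson intervals, with the low-GC class highest at 1 library (35.98%) and the high-GC class at 7 (67.9%).

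Where a low-GC start site had a peak, the peak was low in reads and yet high in fold over Input. The median of library reads per kb was 289 ± 27.7 in the low-GC class and 558 ± 59.8 in the high-GC class (mean ± SD of 7 library medians), a difference of -269 ± 75.5. Input reads per kb were 29.9 ± 2.27 against 93.5 ± 6.15, a difference of -63.6 ± 5.60. The authors' fold over Input, on the log2 scale, was higher at low-GC start sites by 0.70 ± 0.18, at 3.64 ± 0.34 against 2.95 ± 0.47. Each of these differences had the same sign in 7 of 7 libraries (exact sign-flip permutation test, two-sided, adjusted p = 0.0156 over 6 measures). Among the weaker 50% of peaks, a restriction chosen after seeing the data, the difference in library reads per kb was -44.5 ± 11.2 and that in log2 fold 1.42 ± 0.0988. The log2 fold differed by 1.65 for start sites under 40% GC and by 0.43 with windows of 1000 bases on each side. As the Input reads of all lists come from 1 library, the 7 Input values repeat much of the same measurement. Only windows that passed a peak call of library reads against Input enter these values. The test of the fold therefore cannot separate the GC class from this filter. By the authors' ranking, which is not the fold, the median low-GC peak stood at 46.3% of the list in ATAC2 to 72.8% in ATAC7, where 0% is the strongest peak, and the median high-GC peak at 13.6% to 23.8%.

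**Figure D3:**
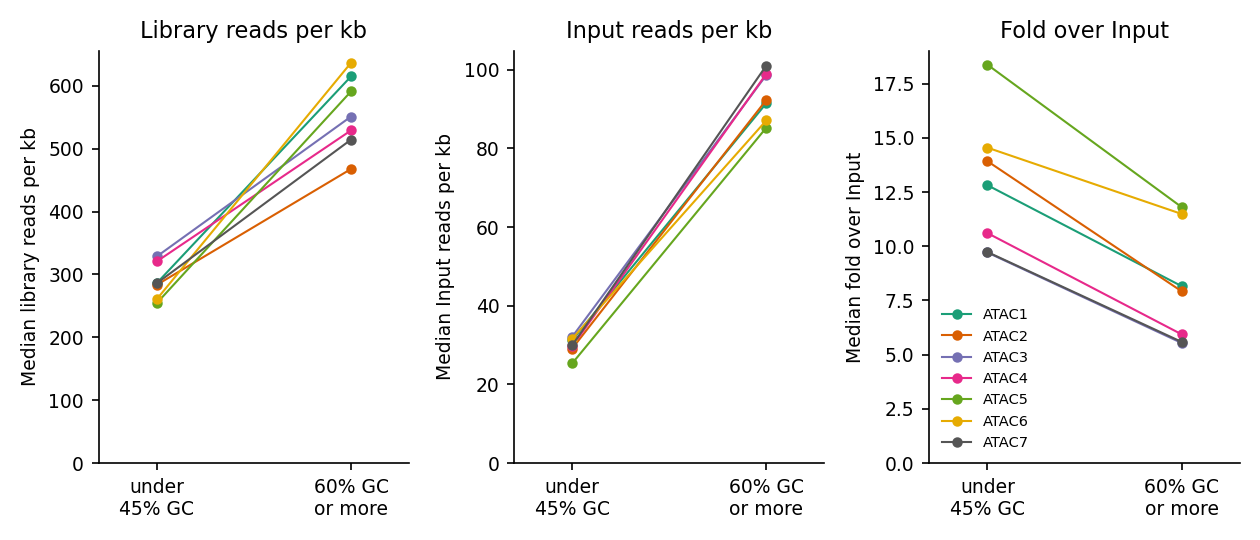
Median library reads per kb, Input reads per kb and fold over Input (y axes of the 3 panels, linear and from 0) of the best peak in the low-GC and high-GC windows (x axis), with a line for each library. Library and Input reads rise from the low-GC to the high-GC class in all 7 libraries, and the fold falls in all 7, from 9.71 to 18.4 down to 5.54 to 11.8.

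Low-GC peaks were narrower, with a mean of the library medians of 148 bases ± 14.4 against 172 ± 18.8. Their centres lay farther from the start site, at 124 bases ± 13.3 against 102 ± 4.57. The differences of -23.3 bases ± 12.01 and 22.9 bases ± 13.98 each had the same sign in 7 of 7 libraries (exact sign-flip permutation test, two-sided, adjusted p = 0.0156). Both depended on the settings: counting every annotated start site of a gene, the width differed by -2.64 bases (exact permutation, adjusted p = 0.828), and among the weaker 50% of peaks the distance differed by -3.71 bases (exact permutation, adjusted p = 0.297).

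Of the 164 low-GC start sites with a peak, 73 had the centre of the best peak within 100 bases and 126 within 250 bases, and 12 had it over 500 bases away. The centre lay upstream of the start at 79 and downstream at 85. For 123 the nearest annotated start was the 5′-most start of the gene itself, for 34 it was another start of the gene, which had 45% GC or more in 12, and for 7 it was a start of another gene. The accessible stretch was richer in G and C than the window around it in 391 of 480 low-GC pairs of start site and library, and in 25273 of 33142 high-GC pairs. Its median GC content was 47.04% to 49.2% over the libraries, in windows with a median of 42.6% to 43.8%. A single member, the predicted gene *Gm10222*, matched the mitochondrial genome, over all of its 1001 bases at 99.8% identity. It had 75 reads in ATAC1 to 1176 in ATAC7, and the part of mitochondrial DNA in them was not tested.

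CG dinucleotides differed between members with and without a peak. Windows without a peak held a median of 6, those with a peak in 1 to 3 libraries 11, in 4 to 6 libraries 17, and in all 7 libraries 20.5. GC content rose along with them, from 40.4% to 43.6%. In a narrow band of 43% to 45% GC, where the median GC was 44.01% with and 44.1% without a peak, the 74 windows with a peak held a median of 18.5 CG dinucleotides (quartiles 11 and 24.75) and the 913 without 8 (5 and 13). No test was made over these windows, which are not replicates.

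**Figure D4:**
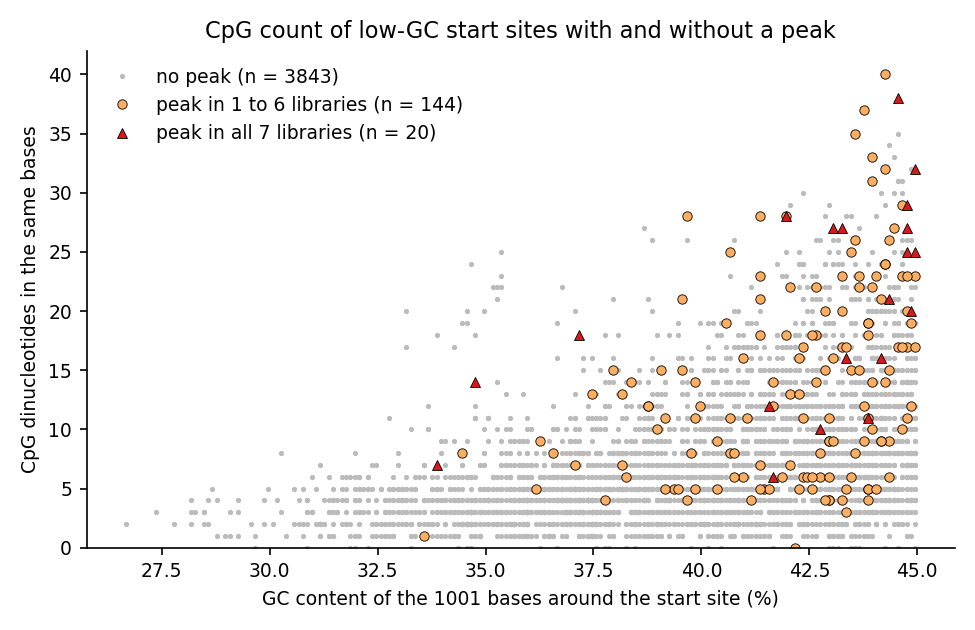
CG dinucleotides (y axis, count) against GC content (x axis, %) of the 1001 bases around each of the 4007 low-GC start sites, marked as having no peak (n = 3843), a peak in 1 to 6 libraries (n = 144) or a peak in all 7 (n = 20). Start sites with a peak in all 7 libraries lie mostly at the upper right, with 6 to 38 CG dinucleotides, and below 35% GC only 4 start sites had a peak.

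Short sequence motifs were looked up in the bases from 250 before to 50 after the start, on both strands. TATAAA, the TATA box, was searched on the gene strand in the 60 bases before the start only. It was found at 7.54% of low-GC, 1.08% of high-GC and 3.44% of all start sites. Of the low-GC start sites with a peak 7 of 164 had it (4.27%, 95% Wilson interval 2.08 to 8.55), with none among the 35 called in 4 to 6 libraries (0 to 9.89) or the 20 called in all 7 (0 to 16.1). Only the 5′-most start was used, while in 8 of these 20 the peak was nearest to another start of the gene. In 1 more it was nearest to a start of another gene. The stretch of *Hist1h3f* printed above holds TATAAA, but downstream of the start and so outside the search. CCAAT, the box bound by NF-Y, stood at 40.6% of low-GC and 37.6% of all start sites, and within the low-GC class at 39.02% with and 40.7% without a peak. It stood at 35.8% of low-GC start sites called in 1 to 3 libraries (27.4 to 45.1), at 10 of the 35 called in 4 to 6 (28.6%, 16.3 to 45.1) and at 15 of the 20 called in all 7 (75%, 53.1 to 88.8). GGGCGG, the GC box bound by Sp1, stood at 2.27% of low-GC start sites, 81.9% of high-GC ones and 43.7% of all. Within the low-GC class it stood at 5.49% with a peak (2.91 to 10.1) and 2.13% without (1.72 to 2.64), intervals that do not overlap, and at 4 of the 20 called in all 7. No test was made for any motif, and low-GC windows with a peak also had a higher median GC content (42.9% against 40.4%).

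Other motifs were compared between low-GC start sites with and without a peak, and their intervals overlapped except where stated. GAGGAAG, a PU.1 motif, was at 18.3% with (95% Wilson interval 13.1 to 24.9) and 11.7% without a peak (10.7 to 12.7), the only pair of these 5 motifs without overlap, and at 13.5% of all start sites. It stood at 21.1% of low-GC start sites called in 1 to 3 libraries (14.5 to 29.7), at 5 of the 35 called in 4 to 6 and at 2 of the 20 called in all 7. TGTGGT, a Runx motif, was at 27.4% with and 21.3% without a peak, and at 15.3% of all. TGANTCA, the AP-1 motif, was at 16.5% and 13.2%, and at 6.93% of all. AGATAA, recognised by GATA factors, was at 20.7% and 22.5%, and at 10.2% of all, and CACGTG, an E-box, at 4.27% and 2.37%, and at 7.78% of all. A match is a string of letters and does not show that a factor is bound.

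The gene families of the low-GC class were unequally open. Sensory receptors made up 1328 of the 4007 low-GC start sites (33.1%), and a single one had a peak, *Vmn1r124* in ATAC3 with 61 reads against 22 Input reads. Of the other 2679 low-GC start sites 163 had a peak (6.08%). None of 958 low-GC olfactory receptors had one, which allows a share of up to 0.313%, nor did any of 42 taste and trace amine receptors (up to 7.14%), 31 defensins (up to 9.68%), 13 keratins (up to 23.1%) or 12 membrane-spanning 4-domain proteins (up to 25%). Ribosomal proteins, cytosolic and mitochondrial, had a peak at 0 of 23 low-GC start sites (up to 13.04%, a range that includes the 6.08% above). They had one at 113 of 154 middle and 38 of 38 high-GC start sites. Zinc finger genes named Zfp had one at 2 of 47 low-GC (*Zfp27* and *Zfp61*), 180 of 230 middle and 82 of 85 high-GC start sites. No peak was called at 14 UDP-glucuronosyltransferases (up to 21.4%) or 15 serpins (up to 20%), and 1 of 33 cytochrome P450 enzymes (*Cyp2j5*) and 1 of 30 solute carriers (*Slc16a4*) had one. Guanylate-binding and interferon-induced proteins had a peak at 5 of 12 (*Gbp2*, *Gbp3*, *Ifi204*, *Ifi205* and *Ifi27l1*), chemokines at 2 of 6 (*Ccl7* and *Cxcl10*), genes named as CD antigens at 2 of 12 (*Cd53* and *Cd69*), and interleukins and their receptors at 2 of 21 (*Il18rap* and *Il1rl1*). C-type lectin and killer cell receptors, with 3 of 41 (*Clec4d*, *Clec4e* and *Klra2*), lay near the share of low-GC start sites other than sensory receptors.

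The named members with the strongest peaks in all 7 libraries were *Tmem167*, *Zcchc7*, *Hist1h3f*, *Golph3l*, *Alpk1*, *Atp5j2*, *Arl5b*, *Shcbp1*, *Nudt13* and *Zfand6*, in order of mean rank. *Tmem167* (ENSMUSG00000012422.8, start at chromosome 13, 90228728), which encodes a small membrane protein, had 934, 902, 576, 592, 1264, 1081 and 434 reads in ATAC1 to ATAC7, in that order, against 73 to 108 Input reads. Its peak was highest in ATAC5 and lowest in ATAC7, and the centre lay 522.5 bases downstream of the start and 37.5 bases from a start of *Xrcc4*, a gene of DNA end joining. *Zcchc7* (ENSMUSG00000035649.11, start at chromosome 4, 44768749), for a zinc-knuckle protein of RNA surveillance, had 652, 402, 429, 369, 837, 346 and 360 reads in ATAC1 to ATAC7. Input reads were 14 in ATAC6 and 61 to 90 in the others, so ATAC6 was counted over a different region. The median centre lay 545.5 bases downstream and 145.5 bases from another start of the gene, where GC was 57.6%. *Atp5j2*, a subunit of mitochondrial ATP synthase, had 264, 169, 106, 135, 263, 233 and 75 reads in the same order, 619 bases downstream and nearest to another start with 54.4% GC. In these 3 genes, a start richer in G and C than the 5′-most start of the gene, or a start of a neighbouring gene, was the nearer to the peak.

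For *Zfand6*, *Hist1h3f*, *Golph3l* and *Arl5b*, the 5′-most start of the gene was the annotated start nearest to the peak. *Zfand6* (ENSMUSG00000030629.7, start at chromosome 7, 91827861), an AN1-type zinc finger gene, had 159 reads in ATAC1, 74 in ATAC3, 94 in ATAC4, 188 in ATAC5, 144 in ATAC6 and 64 in ATAC7, with ATAC2 between ATAC4 and ATAC6, against 2 or 3 Input reads in each. Its window held 33.9% GC and 7 CG dinucleotides, and no other start site of the gene or its neighbours lay nearer to the peak. *Hist1h3f*, a gene of the replication-dependent histone H3, had 459, 407, 174, 315, 465, 515 and 256 reads in ATAC1 to ATAC7 at 37.2% GC. Its peak centre lay 327.5 bases downstream of the start, and a start of *Hist1h2bh*, another histone gene, lay within 1000 bases. It was highest in ATAC6 and lowest in ATAC3, and since its coding sequence has near-identical copies, reads could have been split among them. *Golph3l*, a relative of a Golgi phosphoprotein gene, had 354, 160, 224, 266, 414, 343 and 139 reads, and *Arl5b*, for a small GTPase, had 176, 227, 117, 89, 238, 224 and 77. In each of these 4 genes the lowest number was in ATAC3 or ATAC7 and the highest in ATAC5 or ATAC6.

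*Alpk1*, a kinase that senses a bacterial sugar, had 190, 368, 198, 222, 422, 312 and 109 reads in ATAC1 to ATAC7. *Shcbp1*, whose product binds the adaptor Shc, had 188, 157, 72, 94, 198, 284 and 59, and *Nudt13*, for a Nudix hydrolase, had 185, 138, 86, 86, 172, 211 and 67. ATAC7 was lowest in all 3 of these genes. Of the 20 members called in all 7 libraries, the peak of 11 was nearest to the 5′-most start, of 8 to another start of the gene and of 1 to a start of another gene.

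**Figure D5:**
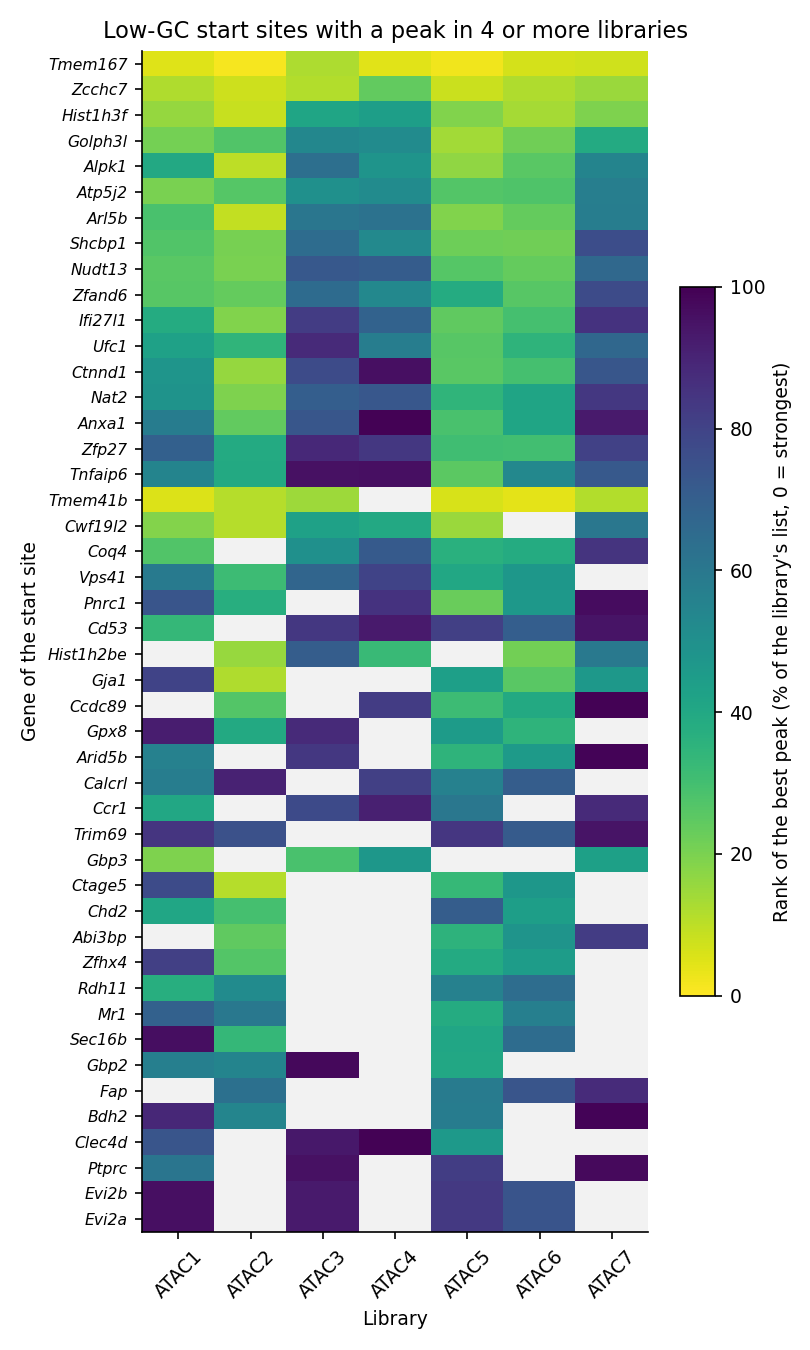
Rank of the best peak as a percentage of the library's list (colour, 0 is the strongest) for low-GC start sites with a peak in 4 or more libraries (y axis, 46 of 55, leaving out 9 predicted genes or clone names), in each library (x axis). Pale cells had no peak. The upper rows hold a peak in all libraries, with *Tmem167* and *Zcchc7* strong throughout, and the pale cells of the lower rows lie mostly in ATAC3, ATAC4 and ATAC7.

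In order of GC content, *Clec4d*, *Ctage5* and *Ptprc* followed *Zfand6* and *Hist1h3f* among members called in at least 4 libraries. *Ctage5*, for a protein of cargo export from the endoplasmic reticulum (38.2% GC), had 72 reads in ATAC1, 219 in ATAC2, 122 in ATAC5 and 68 in ATAC6. *Clec4d*, a C-type lectin gene of myeloid cells (37.8% GC, 4 CG dinucleotides), had 166 in ATAC1, 91 in ATAC3, 86 in ATAC4 and 127 in ATAC5. The former was not called in ATAC3, ATAC4 or ATAC7 and the latter not in ATAC2, ATAC6 or ATAC7.

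Genes of blood cells were examined because the sort excluded cells with CD45 and TER119. On a list of 60 haematopoietic genes, 57 were found and 8 were low-GC, of which 5 had a peak, among them *Cd53*, *Ptprc*, *Arhgdib* and *Rhag*, and *Ctsg*, *Mpeg1* and *Samsn1* had none. *Cd53* (start at chromosome 3, 106593067), a tetraspanin of leukocytes, had 184 reads in ATAC1, 53 in ATAC3, 70 in ATAC4, 62 in ATAC5, 50 in ATAC6 and 58 in ATAC7, against 2 to 5 Input reads, and no peak in ATAC2. *Ptprc* (start at chromosome 1, 140071882), the gene of CD45, had 84 in ATAC1, 70 in ATAC3, 60 in ATAC5 and 58 in ATAC7, against 0 to 2 Input reads. In these unscaled reads ATAC1 was highest for both, and ATAC2 had no peak at either. The authors' fold over Input for *Ptprc* was 51.3 in ATAC1, 51.1 in ATAC5 and 63.4 in ATAC7. The called *Ptprc* peaks of ATAC1 and ATAC7 shared no base.

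*Rhag* of the same list, for the Rh-associated glycoprotein of red cells, with 33.6% GC and 1 CG dinucleotide, had 49 reads in ATAC1 only. The next 3 genes were chosen after their values were seen. *Hbb-b1* and *Hbb-b2*, the adult beta globins, had 248 and 130 reads in ATAC1, 243 and 90 in ATAC4, and 70 and 50 in ATAC6, and as near-identical copies they are uncertain. *Spna1*, the erythroid spectrin, had 130 in ATAC1 and 71 in ATAC4. The globins were not called in ATAC2, ATAC3, ATAC5 or ATAC7.

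Over the whole haematopoietic list, whatever the GC content, a peak was called at 28, 8, 18, 14, 21, 13 and 11 of the 57 genes in ATAC1 to ATAC7. The share was 49.1% in ATAC1, where 45.3% of all start sites had a peak, and 14.04% to 36.8% in the others, below their shares of 38.9% to 48.3% of all. The low-GC members among them numbered 5, 0, 2, 2, 2, 3 and 2. By GC class, 5 of 8 low-GC, 26 of 45 middle and 2 of 4 high-GC genes of the list had a peak in any library, beside 4.09%, 51.3% and 86.6% of the classes. Whether blood cells in the sorts had a part in the low-GC peaks was not tested.

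Of 49 stromal and skeletal genes found on a list of 50, 14 were low-GC and 3 of them had a peak, beside 4.09% of the whole low-GC class. Of the middle genes of the list 9 of 23 had a peak, and of the high-GC genes 11 of 12. *Fap* (start at chromosome 2, 62412132), for fibroblast activation protein, had 98 reads in ATAC2, 132 in ATAC5, 55 in ATAC6 and 50 in ATAC7, against 13 to 21 Input reads. *Col5a2*, a chain of type V collagen, had 55 in ATAC5 and 116 in ATAC6, and *Lum*, for the proteoglycan lumican, had 46 in ATAC2. None of the 3 had a peak in ATAC1, ATAC3 or ATAC4. The list as a whole had a peak at 9, 18, 6, 5, 19, 18 and 11 genes in ATAC1 to ATAC7, or 10.2% to 38.8%, below the share of all start sites in each library. No peak was called at the 5′-most start of *Col3a1*, *Dcn*, *Fabp4*, *Fbn1*, *Ibsp*, *Mmp13*, *Ogn*, *Omd*, *Pdgfra*, *Postn* or *Vcam1*.

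*Pdgfra*, a gene of the sort, shows what the choice of the 5′-most start does. It had a peak in 5 libraries at another start (chromosome 5, 75552191) with 63.3% GC, and *Fbn1*, for fibrillin, had a peak in 4 libraries at a start with 65.2% GC. Of the 3843 low-GC genes without a peak, 947 had another annotated start site and 158 had a peak there, in all 7 libraries for 84. That other start had 45% GC or more in 149 of the 158 and 60% or more in 73. *Ctnnb1*, for beta-catenin, and *Fyn*, for a Src-family kinase, had it at 73.4% and 67.1% GC in all 7 libraries. *Samsn1*, an adaptor gene of blood cells on the haematopoietic list, had it in all 7 at a start with 37.1% GC. *Ctnnb1*, *Fyn* and *Samsn1* were chosen after their values were seen.

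Of 30 endothelial genes 4 were low-GC and 1 of them had a peak, beside 4.09% of the class. *Calcrl* (start at chromosome 2, 84265568), for the receptor of adrenomedullin and calcitonin gene-related peptide, had 88 reads in ATAC1, 44 in ATAC2, 56 in ATAC4, 102 in ATAC5 and 69 in ATAC6, against 10 to 16 Input reads. *Ptprb*, *Sele* and *Selp* had no peak. The whole list had a peak at 2, 2, 0, 2, 4, 2 and 0 genes in ATAC1 to ATAC7, or 0% to 13.3%, below the share of all start sites in each library. The sort excluded cells with the endothelial marker CD31. Its gene, *Pecam1*, of the middle GC class, was among the 5 genes of the list with a peak in any library.

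Inflammatory genes had a peak at 6 of 11 low-GC start sites, beside 4.09% of the class, against 21 of 28 middle ones and the single high-GC one on a list of 40. *Gbp3*, an interferon-induced guanylate-binding protein gene, had 355 reads in ATAC1, 222 in ATAC3, 193 in ATAC4 and 168 in ATAC7, against 27 to 29 Input reads, with a centre 607 bases downstream of its start and nearest to another start with 48.3% GC. *Gbp2* of the same family had 99 in ATAC1, 76 in ATAC2, 51 in ATAC3 and 236 in ATAC5, at its own start. Within 1000 bases of the start, *Gbp3* had a peak in all 7 libraries and *Gbp2* in 4. *Cxcl10*, a chemokine that attracts T cells, had 90 in ATAC1, 86 in ATAC2 and 120 in ATAC5. *Ccl7*, a chemokine for monocytes, had 45 in ATAC1 and 102 in ATAC5. *Tlr6*, a receptor for bacterial lipopeptides, had 57 in ATAC2 and 56 in ATAC5. ATAC5 held a peak at each of *Cxcl10*, *Ccl7* and *Tlr6*, and ATAC3, ATAC4, ATAC6 and ATAC7 at none of them. The other low-GC members with a peak differed. *Gbp3* was not called in ATAC5, *Gbp2* was called in ATAC3 as well, and *Il1rl1* was called in ATAC6 only. Within 1000 bases of the start *Tlr6* had a peak in 5 libraries, *Cxcl10* in 3 and *Ccl7* in 2. The whole list had a peak at 23, 16, 13, 10, 22, 13 and 11 genes in ATAC1 to ATAC7. Its share lay above that of all start sites in ATAC1 (57.5% beside 45.3%) and ATAC5 (55% beside 48.3%) and below it in the other 5.

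Members called in a single library were most numerous in ATAC5, ATAC2 and ATAC1. ATAC5 had 18 of them (17.0% of its low-GC start sites with a peak, 95% Wilson interval 11.02 to 25.3), ATAC2 16 (18.6%, 11.8 to 28.1) and ATAC1 14 (16.5%, 10.1 to 25.8). ATAC6 had 4, ATAC3 and ATAC4 had 3 each and ATAC7 had 1. In the high-GC class the highest share was 2.68% in ATAC5 (2.28 to 3.16). The best-ranked was *Stap1*, a signalling adaptor of blood cells, in ATAC1 with 70 reads against 5 Input reads. It was *Slitrk6*, a neuronal membrane protein gene, in ATAC2 with 97 against 10, and *Pcdh9*, a protocadherin gene, in ATAC5 with 146 against 9. In ATAC6 it was *Il1rl1*, the receptor of interleukin-33, with 35 against 4. *Aars*, for the alanyl-tRNA synthetase, in ATAC3 (184 reads against 24) and *Mtmr2*, for a phosphoinositide phosphatase, in ATAC4 (319 against 53) had peaks 532.5 and 633 bases downstream, nearest to other starts with 53.0% and 57.0% GC. Both had a peak in all 7 libraries within 1000 bases of the start, and altogether 15 of the 59 members called in a single library had a peak of another library at that distance. *Stap1*, *Slitrk6* and *Il1rl1* had none. *Pcdh9*, with its peak centre 483.5 bases upstream, had a peak in 3 libraries at that distance.

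Of the sets of 2 or 3 libraries, the 3 with the most members are given, and the genes named from them are examples chosen after their values were seen. ATAC1 and ATAC5 alone shared 11 members, among them *Cd69*, a marker of activated lymphocytes (75 and 94 reads), *Clec4e*, a C-type lectin gene (47 and 63), and *Casp4*, an inflammatory caspase gene (66 and 61). ATAC2 and ATAC5 alone shared 10, among them *Fgf7*, a fibroblast growth factor gene (39 and 83), and *Mmp3*, for the matrix enzyme stromelysin (61 and 80). ATAC2, ATAC5 and ATAC6 alone shared 10, among them *Enpp2*, for autotaxin (87, 85 and 75), and *Cp*, for ceruloplasmin (95, 159 and 59). In the high-GC class the same 3 sets held 19, 53 and 133 of 5515 start sites, so that they made up 6.71%, 6.10% and 6.10% of the low-GC and 0.345%, 0.961% and 2.41% of the high-GC start sites with a peak.

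A further 3 members called in 5 or more libraries were named after their values were seen. *Anxa1*, for the anti-inflammatory protein annexin A1 (41.7% GC, 6 CG dinucleotides), had 126, 204, 105, 54, 351, 138 and 93 reads in ATAC1 to ATAC7. *Tnfaip6*, for a hyaluronan-binding protein of inflamed tissue (42.0% GC, 28 CG dinucleotides), had 102, 99, 61, 44, 200, 94 and 76. *Gja1*, for connexin 43, had 59 in ATAC1, 291 in ATAC2, 298 in ATAC5, 237 in ATAC6 and 100 in ATAC7. In all 3 genes ATAC5 was highest, and ATAC4 was lowest or without a peak.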

How the data were processed

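Peak tables of 7 ATAC-seq libraries of sorted bone marrow stromal cells were analysed, each title with 1 library. The authors mapped the reads with bowtie (mm9) and used CisGenome in two-sample mode to call peaks over the Input library, library by library, at a p-value limit of 1e-05, keeping those with an FDR under 0.01. A shift of reads for the transposase and a removal of duplicates are not given in the sources used here, and without a shift, edges of peaks would lie a few bases off.

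The deposited tables have no header, so columns were identified from their values. Each row holds a rank, the peak's first and last base, and those of a wider outer region. The authors counted library and Input reads in that region, and these deposited counts are whole numbers without normalization. The ranking statistic is a deposited signal column of the peak caller and was used only through the rank. The fold is the authors' ratio of scaled library reads to Input reads plus 0.01. A further position column was not used. The separate lists hold the same coordinates. Coordinates were read as inclusive and are printed as the files give them. Reads per kb are counts divided by the length of the outer region.

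Start sites and sequences were read from the reference genome NCBIM37, the same build as mm9, with the GENCODE vM1 annotation. For each window and library the best-ranked peak was used. Differences between the GC classes were taken within each library and tested by an exact sign-flip permutation test over 7 libraries, with Benjamini-Hochberg adjustment over 6 measures. The p-values measure the spread between these libraries, which are not replicates of a population. Shares have 95% Wilson intervals. A count of 0 was taken to allow up to 3. With blastn 2.17.0, matches of windows to mitochondrial DNA were kept from 50 bases and 80% identity. The peak assignment and the test were checked on simulated data. The software was Python 3.11.15, scipy 1.17.1, pandas 2.3.3, numpy 2.4.6 and matplotlib 3.10.9.

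The members and gene lists were chosen with earlier results of these data known. Genes named by rule are the 10 with a peak in all 7 libraries and the best mean rank, the 5 of lowest GC among those in at least 4 libraries, the best-ranked member of each single library, and up to 6 members of each gene list. Predicted genes and clone names, 26 of the 164 members with a peak, were counted and passed over in naming. For ATAC7 this left no gene to name. A gene of the lists is not reported here. Of a gene family, the few members with a peak are named. Any further gene is marked in the text as chosen after its values were seen. The alternatives were other windows, start sites, GC limits, peak numbers and folds, and leaving out each library.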

Additional observations from a re-analysis of the deposited data

How the results depend on the processing

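The share of start sites with a peak, the log2 fold and the library and Input reads per kb kept their direction and their side of an adjusted p of 0.05 under every alternative run. Their low minus high differences ranged from -75.1 to -55.4 percentage points, from 0.43 to 1.65, from -334 to -44.5 and from -80.4 to -49.9. The share called in all 7 libraries, given without a test, differed by -48.0 to -13.4 percentage points. The restriction to the weaker 50% of each list and the measure of the share called in all 7 libraries were chosen after seeing the data.

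Width and distance did not hold as well. The distance differed by 10.3 bases when the peak centre had to lie in the window (exact permutation, adjusted p = 0.0781), by 12.2 over every annotated start site (0.0938), by 5.07 for start sites under 40% GC (0.453) and, in reverse, by -3.71 among the weaker 50% of peaks (0.297). The width differed by -13.6 with windows of 1000 bases on each side (0.188), by -2.64 over every annotated start site (0.828) and by -28.3 under 40% GC (0.244). In the other direction, the distance differed by 382 bases with windows of 1000 bases on each side (exact permutation, adjusted p = 0.0188). The causes were not tested.

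Leaving out each library in turn gave differences of -73.5 to -71.7 percentage points in share, 0.67 to 0.76 in log2 fold, -283 to -251 in library reads per kb, -65.0 to -62.4 in Input reads per kb, -26 to -19.3 bases in width and 19.9 to 26.25 bases in distance, with adjusted exact permutation p of at most 0.0312. The share called in all 7 differed by -47.9 to -45.2 percentage points.

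Counts moved by over 1.5 times as follows. Windows of 1000 bases on each side gave 49 low-GC start sites called in all 7 libraries, and 129 in ATAC1, 82 in ATAC3, 77 in ATAC4, 165 in ATAC5, 123 in ATAC6 and 76 in ATAC7. The same number of peaks from each list gave 83 in any library, 47 in ATAC1, 43 in ATAC2, 42 in ATAC5 and 36 in ATAC6. Every annotated start site, 7633 of them low-GC, gave 393 in any library, 57 in all 7, and 205, 212, 100, 110, 252, 202 and 101 in ATAC1 to ATAC7. The 1832 start sites under 40% GC gave 33 in any library, 3 in all 7, and 17, 11, 8, 7, 23, 9 and 6. More or fewer bases, peaks or start sites enter these counts by construction.

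The low-GC and high-GC values were paired within each library in every test. Across the titles, no paired analysis was possible because their labels hold no replicate number to pair by.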
